A study of Mus musculus with 4 samples.

Results

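The genes described here are 38 interferon-stimulated effector and sensor genes, read in RNA from tumour-associated macrophages. They are a list of gene names, with no STAT, IRF or GBP gene among them, and the rule that sets the list uses no measured value, although it was drawn up with earlier results of these data known. All 38 were found among the 39179 gene identifiers of the count tables, and all 38 were among the 14075 genes with enough counts to be tested. MycCaP is a mouse prostate carcinoma line from FVB mice that carries a prostate-driven Myc transgene. One group, called MycCaP here, is macrophages from subcutaneous tumours grown from MycCaP cells in FVB mice, and the other, called MycCaP-BMP4, is macrophages from tumours grown from MycCaP-BMP4 cells, a derivative that makes the secreted bone morphogenetic protein BMP4. Each group has 2 libraries, and the labels give both groups the same sort, CD45+, CD11b+, GR1- and F4/80+, although F4-80 stands in the sample titles of the MycCaP-BMP4 group alone. Neither the age of the mice, the time of growth, the number of tumours behind a library, nor whether the BMP4 line is a clone or a pool is given in the sources used here. Because the labels do not say that replicates came from separate mice, each p-value reflects the variation among these 4 libraries alone, and that variation may be technical.

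Type I interferons, the alpha family and interferon beta, bind the receptor IFNAR, whose kinases JAK1 and TYK2 activate STAT proteins. With IRF9 these form ISGF3, a complex that binds paired GAAA elements in promoters and switches on a broad antiviral set. The products bind or degrade viral RNA, sense nucleic acids, restrict viruses at membranes, or tag and untag proteins with ISG15. Macrophages respond strongly to these cytokines and also carry many of the genes at a resting level, held by low interferon tone. Interferon gamma, which acts through a receptor of its own, induces part of the same set.

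The 4 libraries held between 23058263 and 24967143 counts in genes, so that 3 counts corresponded to between 0.1202 and 0.1301 CPM (counts per 1000000). Bmp4 had 4 and 1 counts in the MycCaP libraries and 14136 and 4138 in the MycCaP-BMP4 libraries, an order that matches the labels. The sorted cell type was present in each library, since all 18 pan-macrophage marker genes were detected, but their summed level was 36750 and 34930 CPM in the MycCaP libraries against 9519 and 29740 CPM in MycCaP-BMP4 replicates 1 and 2. Of the 18, 14 were below both MycCaP libraries in both MycCaP-BMP4 libraries and 4 overlapped. All genes tested gave 29.7% lower and 28.9% higher without overlap. Of 8 tumour epithelial markers tested, 6 lay higher and 1 lower without overlap, and the summed level of the 11 on the list ran from 103 to 141.5 CPM in MycCaP and from 310 to 901.5 CPM in MycCaP-BMP4. MycCaP-BMP4 replicate 1 therefore lay furthest from MycCaP on both lists. On the tumour epithelial list replicate 2 also stood clear of MycCaP. The tested markers of that list had median log2 differences from the MycCaP mean of 2.37 in replicate 1 and 1.30 in replicate 2. The chi-square per degree of freedom between replicates was 46.6 for MycCaP and 305 for MycCaP-BMP4. Values are given per library for this reason, and in bulk RNA fewer cells of a type and less RNA per cell cannot be told apart.

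Most of the 38 genes had lower normalised counts in the MycCaP-BMP4 libraries. In 34 the values of both MycCaP-BMP4 libraries lay below those of both MycCaP libraries, in Isg20 and Samhd1 both lay above, and in Trim25 and Ifi35 the groups overlapped. Across all genes tested, 29.7% lay lower without overlap and 28.9% higher. The median log2 fold change of the 38 genes, MycCaP-BMP4 over MycCaP, was -1.48, and that of all genes tested was -0.03. Scaling the libraries on the 18 pan-macrophage genes moved the median over all tested genes to 1.62 and that of the 18 genes to -0.03, so a gene near 0 under it was as low as the macrophage markers. On that scaling 15 of the 38 lay lower without overlap, 19 overlapped and 4 lay higher, where 4.14% of all genes tested lay lower and 67.5% higher, and the median of the 38 was -0.30. By size on the first scaling, 6 genes had a log2 fold change under -2, 22 lay between -2 and -1, and 8 between -1 and 0.

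None of the 38 passed edgeR's quasi-likelihood test with Benjamini-Hochberg adjustment over all genes, with adjusted p from 0.1005 to 0.969, and neither did any other gene (0% called). At an unadjusted p under 0.05, 25 of the 38 genes were lower and 1, Isg20, was higher, where all genes tested gave 6.76% lower and 12.3% higher. DESeq2, run on the same counts, called 18 of the 38 lower and 0 higher, against 3.01% of all genes lower and 6.83% higher, and limma-voom called 0. The 18 were Isg15, Usp18, Ifit2, Ifit3, Ifit3b, Oas1a, Oas1g, Oas3, Oasl2, Dhx58, Zbp1, Mx1, Mx2, Ifi47, Bst2, Rtp4, Ifi44 and Xaf1. An exact permutation of 2 libraries against 2 cannot give a two-sided p below 0.333 for a single gene.

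**Figure D1:**
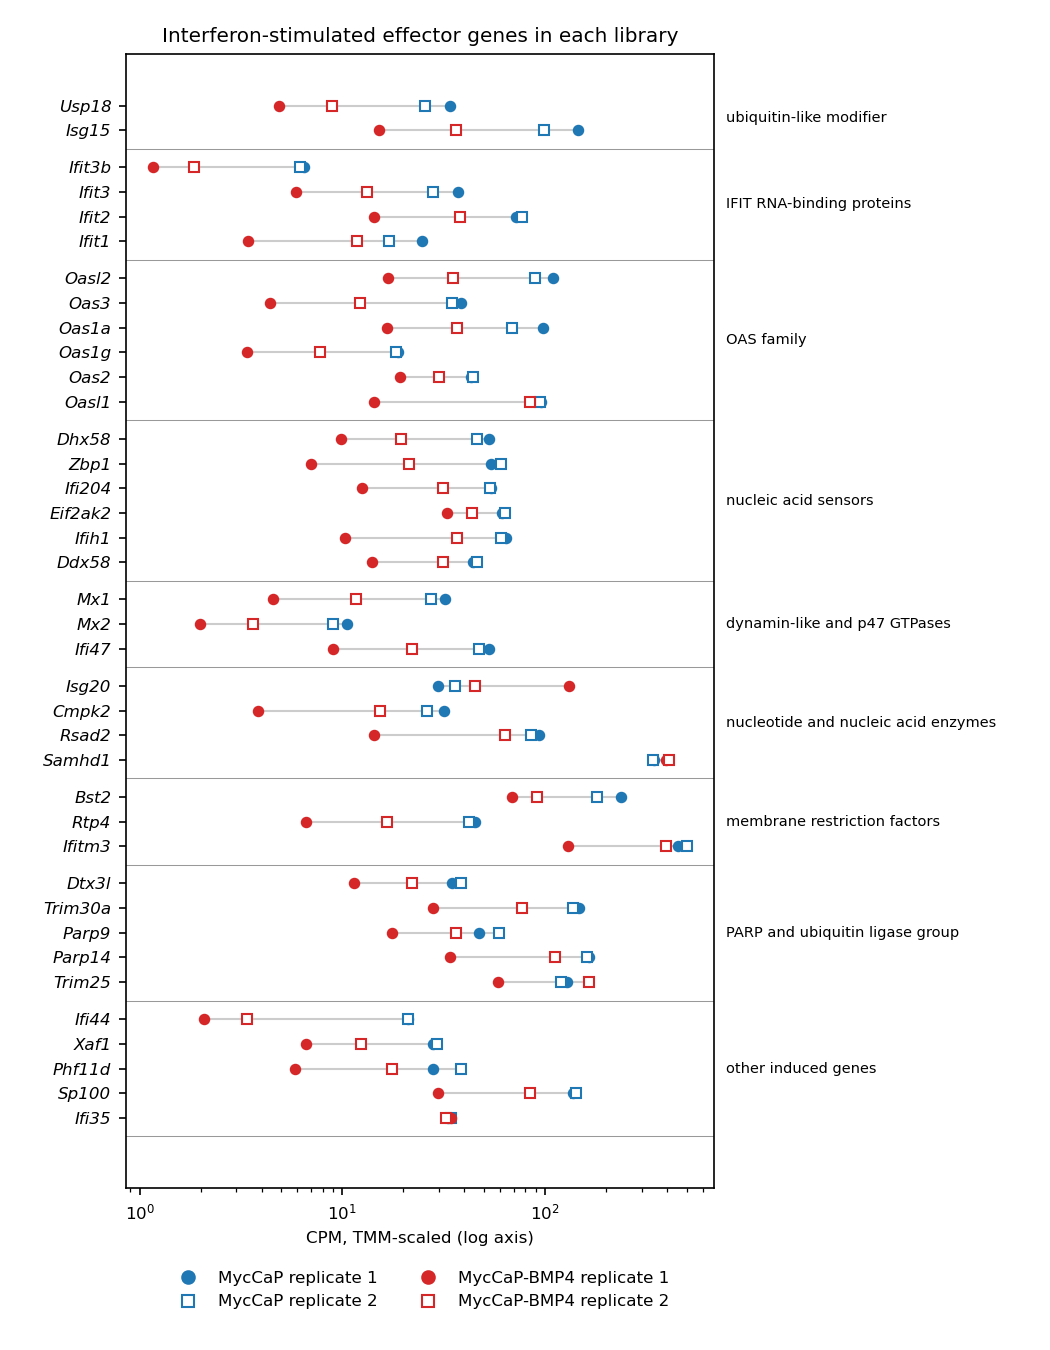
Normalised level of each of the 38 genes in the 4 libraries, in TMM-scaled CPM on a log axis, grouped by role; circles are replicate 1 and squares replicate 2, blue for MycCaP and red for MycCaP-BMP4. The blue points of a gene lie close together, the red points lie to their left in 34 genes (15 when scaled on the pan-macrophage genes), and the filled red circle is the lowest point in most rows.

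The promoters of these genes were searched for the paired element that ISGF3 binds. RefSeq promoter windows on GRCm38.p6, from 250 bases before to 50 bases after an annotated start, were matched for 28 of the 38 genes. Both strands were searched for GAAANNGAAA, where N is any base. This motif stood in the windows of 14 of the 28 genes (50%), and in 3.99% of the 27025 genes with a window. With a gap of 1 base in place of 2, GAAANGAAA, the count was 9 of 28 (32.1%) against 3.70% of all genes, and 19 of 28 genes (67.9%) against 7.27% had one form or the other. The segments printed next are from genes of 5 roles and show how the element is built, alone, in overlapping runs and in separate copies. Each is given on the strand of its gene, from 5′ to 3′, with the matches in capitals, and TTTCNNTTTC is the same motif read on the other strand.

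Isg15, minus strand, chr4:156200860-156200911: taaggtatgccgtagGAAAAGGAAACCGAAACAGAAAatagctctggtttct
Oas3, minus strand, chr5:120777710-120777749: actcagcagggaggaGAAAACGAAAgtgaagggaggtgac
Ifit1, plus strand, chr19:34640770-34640828: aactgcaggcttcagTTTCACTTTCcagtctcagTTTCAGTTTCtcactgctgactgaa
Bst2, minus strand, chr8:71537572-71537617: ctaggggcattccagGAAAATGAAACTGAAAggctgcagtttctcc
Rsad2, minus strand, chr12:26456548-26456587: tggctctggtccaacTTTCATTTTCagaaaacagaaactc

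In Isg15 the first of 3 overlapping matches began 78 bases before the start, and in Bst2 the first of 2 overlapping matches began 130 bases before it. The single matches of Oas3 and Rsad2 began 75 and 120 bases upstream. Ifit1 held 2 separate matches, the first beginning 104 bases upstream. The copies Ifit3 and Ifit3b shared their segment letter for letter, and so did Oas1a and Oas1g.

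Ifit3, plus strand, chr19:34583358-34583431: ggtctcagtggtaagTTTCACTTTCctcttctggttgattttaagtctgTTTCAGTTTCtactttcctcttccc
Ifit3b, plus strand, chr19:34607754-34607827: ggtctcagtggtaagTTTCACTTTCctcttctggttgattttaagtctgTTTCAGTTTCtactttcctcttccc
Oas1a, minus strand, chr5:120907515-120907560: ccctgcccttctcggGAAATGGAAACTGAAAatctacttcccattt
Oas1g, minus strand, chr5:120887601-120887646: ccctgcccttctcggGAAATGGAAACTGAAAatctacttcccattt

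The gap of 1 base occurred alone in Ifi44, Ifi35, Xaf1, Phf11d and Sp100. It is shown for Ifi44, the gene with the lowest log2 fold change, and for Sp100, near the middle of the list.

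Ifi44, minus strand, chr3:151749935-151749973: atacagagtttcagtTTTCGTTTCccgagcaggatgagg
Sp100, plus strand, chr1:85649933-85649971: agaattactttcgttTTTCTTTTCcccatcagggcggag

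The 14 genes with the gap of 2 bases all lay lower without overlap, where 29.7% of all genes tested did. Their log2 fold changes ran from -2.25 to -0.71 around a median of -1.45. The 14 searched genes without it had a median of -1.40, and 10 of them lay lower. The 10 genes with no window all lay lower, with a median of -1.78. Of the 14 with the gap of 2 bases, Bst2, Ddx58, Eif2ak2, Ifit3, Ifitm3, Oas1a and Trim30a overlapped on the pan-macrophage scaling. The others of these 14 stayed lower, where 4.14% of all genes tested lay lower. On that scaling Cmpk2, Ifi44, Ifi47 and Oasl2 stayed lower among the searched genes without the gap of 2 bases. Among the genes with no window Mx1, Rtp4, Usp18 and Zbp1 did. Isg20, which had 3 windows, and Samhd1 and Trim25 had neither form, and Ifi35 had a gap-of-1 match 13 bases after its start. Oasl2 and Ifi47, at log2 fold changes of -1.93 and -1.69, also had neither form. A match describes the letters of the window only, and its absence says only that these letters are not there.

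**Figure D2:**
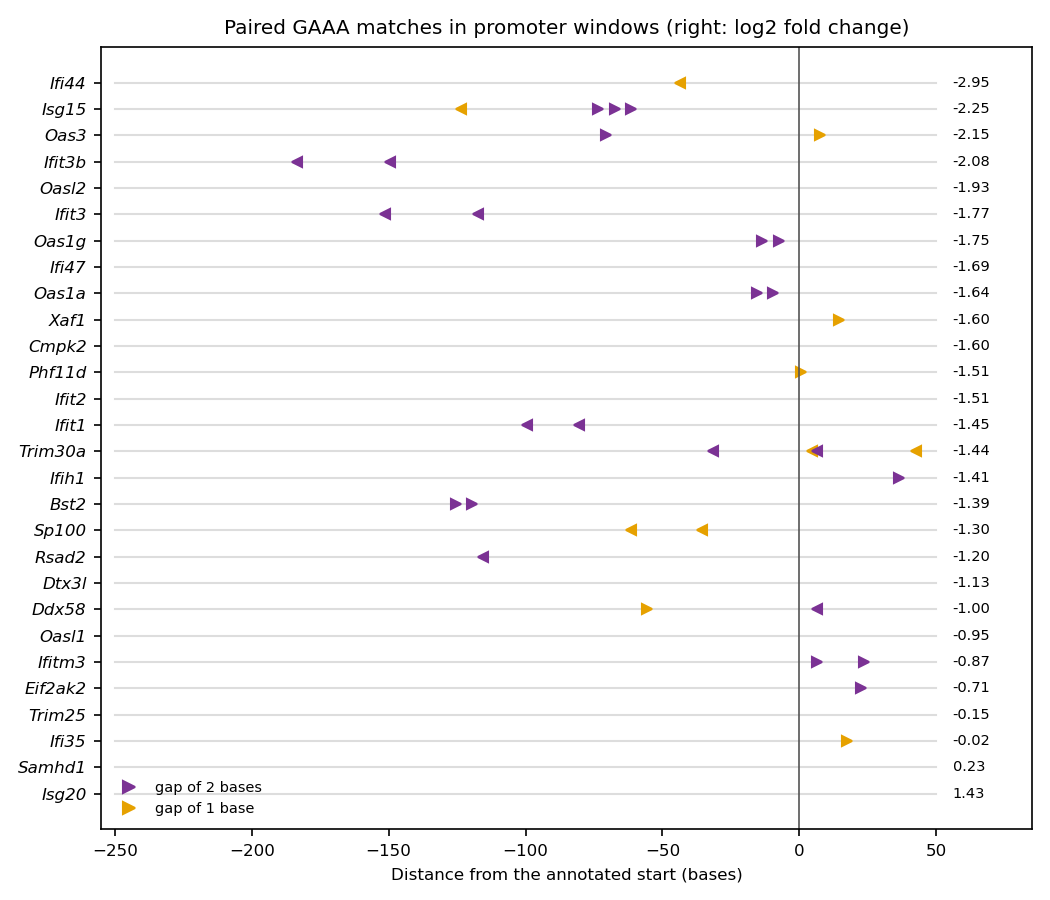
Positions of paired GAAA matches along the promoter windows of the 28 searched genes, in bases from the annotated start, with purple for a gap of 2 bases and orange for a gap of 1; a triangle points right where the motif reads along the gene's strand and left where it reads on the other. Genes are ordered by log2 fold change, printed at the right, and purple marks occur from Isg15 at -2.25 to Eif2ak2 at -0.71, with none in the 4 rows at the foot.

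ISG15 is a ubiquitin-like protein joined to other proteins after interferon, and USP18 is the protease that removes it and also damps the receptor. Isg15 (ENSMUSG00000035692, chromosome 4, 156199424 to 156200818 in GENCODE M21) had 146 and 99.4 CPM in MycCaP replicates 1 and 2 and 15.2 and 36.5 CPM in MycCaP-BMP4 replicates 1 and 2. Its log2 fold change was -2.25 ± 0.49 (SE, n = 2 per group; edgeR adjusted p = 0.143). Usp18 had 34.1 and 25.7 CPM against 4.89 and 8.87 CPM, a log2 fold change of -2.12 ± 0.40 (edgeR adjusted p = 0.132). Isg15 stood at 12.35% and 29.7% of the MycCaP mean and Usp18 at 16.3% and 29.7%, and in neither gene did the groups overlap, also when libraries were scaled on the pan-macrophage genes.

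IFIT proteins bind viral RNA that lacks the cap methylation of host messengers. Ifit2 had 72.2 and 76.7 CPM in MycCaP and 14.3 and 38.2 CPM in MycCaP-BMP4. Ifit3 had 37.1 and 28.1 CPM against 5.94 and 13.2 CPM. Ifit3b, a close copy of Ifit3, had 6.475 and 6.21 CPM against 1.16 and 1.85 CPM, a log2 fold change of -2.08 ± 0.51 (edgeR adjusted p = 0.152). In these 3 genes the higher MycCaP-BMP4 library lay well under the lower MycCaP library. Ifit1, whose protein recognises the unmethylated cap, had 24.6 and 16.9 CPM against 3.44 and 11.8 CPM and a log2 fold change of -1.45 ± 0.62 (edgeR adjusted p = 0.280). Its MycCaP-BMP4 libraries differed 3.42-fold from each other, with replicate 2 closer to MycCaP replicate 2 than to MycCaP-BMP4 replicate 1. All 4 genes lay lower without overlap; scaled on the pan-macrophage genes, 2 did and 2 overlapped. Of all 36-base stretches in the exons of Ifit3, 58.5% also occur in Ifit3b. Reads that match both genes could be left uncounted as multiple alignments, or be split between the genes, so the separate values are uncertain.

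The OAS enzymes make short oligoadenylates when they meet double-stranded RNA, which turn on RNase L. Oas1a had 97.95 and 68.4 CPM in MycCaP and 16.55 and 36.8 CPM in MycCaP-BMP4. Oas1g had 18.7 and 18.5 CPM against 3.37 and 7.73 CPM, and it shares 52.0% of its 36-base stretches with Oas1a, whose own share is 65.7%. Oas3 had 38.6 and 34.7 CPM against 4.38 and 12.2 CPM. In these 3 genes MycCaP-BMP4 replicate 1 lay between 12.0% and 19.9% of the MycCaP mean and replicate 2 between 33.2% and 44.2% of it. Oasl2 had 109 and 89.55 CPM against 16.8 and 35.3 CPM, and gave a log2 fold change of -1.93 ± 0.41 (edgeR adjusted p = 0.141). Oas2 had 43.2 and 43.95 CPM against 19.15 and 30.1 CPM, a smaller distance than in the other synthetase genes. Oasl1, which encodes an OAS-like protein that represses IRF7 translation, had 96.0 and 94.6 CPM against 14.4 and 84.7 CPM, with a log2 fold change of -0.95 ± 0.76 (edgeR adjusted p = 0.526). That was the widest gap between the MycCaP-BMP4 libraries among the 38 genes, 5.89-fold, and replicate 2 reached 88.85% of the MycCaP mean. Without replicate 1 the log2 fold change of Oasl1 was -0.17. The 6 OAS genes all lay lower without overlap; scaled on the pan-macrophage genes 3 did and 3 overlapped, and Oas2 turned to a log2 fold change of 0.64.

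Sensors of foreign nucleic acid formed the next group. Ifih1 encodes MDA5, a sensor of long double-stranded RNA, and had 64.1 and 60.9 CPM in MycCaP and 10.3 and 36.9 CPM in MycCaP-BMP4. Ddx58 encodes RIG-I, which binds RNA ends, and had 44.05 and 46.3 CPM against 13.9 and 31.3 CPM, a log2 fold change of -0.9985 ± 0.4189 (edgeR adjusted p = 0.275). Dhx58, for the regulatory helicase LGP2, had 53.0 and 45.9 CPM against 9.885 and 19.5 CPM and had the smallest p of the group, with a log2 fold change of -1.75 ± 0.39 (edgeR adjusted p = 0.144). In MycCaP-BMP4 replicate 2, Dhx58 was at 39.35% of the MycCaP mean, whereas Ifih1 was at 59.0% and Ddx58 at 69.3%. Zbp1, whose product senses Z-form nucleic acid and can start necroptosis, had 54.1 and 60.7 CPM against 6.99 and 21.4 CPM. Eif2ak2 encodes PKR, a kinase that stops translation on double-stranded RNA, and had 61.6 and 63.6 CPM against 33.0 and 43.5 CPM. Ifi204, an AIM2-like receptor gene of the DNA-binding p200 family, had 54.0 and 53.6 CPM against 12.5 and 31.5 CPM. Zbp1 was the furthest below MycCaP of these 6 and Eif2ak2 the nearest to it. The 6 genes lay lower without overlap; with pan-macrophage scaling 2 did, 4 overlapped, and Ddx58 and Eif2ak2 turned to log2 fold changes of 0.30 and 0.83. Ifi204 shares 29.3% of its 36-base stretches with other genes of the tables, 17.4% with Ifi211, and is uncertain to that degree.

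Interferon-induced GTPases trap incoming virus particles or act at vacuoles. Mx1, for a dynamin-like GTPase against influenza-type viruses, had 32.15 and 27.3 CPM in MycCaP and 4.56 and 11.7 CPM in MycCaP-BMP4, with a log2 fold change of -1.87 ± 0.49 (edgeR adjusted p = 0.157). Mx2 had 10.6 and 8.99 CPM against 1.99 and 3.60 CPM; GENCODE lists it as a polymorphic pseudogene. Ifi47, of the immunity-related GTPases, had 52.7 and 47.3 CPM against 8.94 and 22.1 CPM and a log2 fold change of -1.69 ± 0.46 (edgeR adjusted p = 0.163). The 3 genes lay at similar distances from MycCaP, between 15.3% and 20.3% of its mean in MycCaP-BMP4 replicate 1, then between 36.8% and 44.2% for replicate 2. None overlapped between groups, and on the pan-macrophage scaling 2 lay lower and Mx2 overlapped.

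The enzymes that act on nucleotides and nucleic acids went both ways. Rsad2 encodes viperin, which makes a chain-terminating nucleotide, and had 93.05 and 85.1 CPM in MycCaP and 14.3 and 63.4 CPM in MycCaP-BMP4. Cmpk2, its neighbour on chromosome 12, encodes a kinase that supplies viperin's substrate, and had 31.7 and 26.3 CPM against 3.84 and 15.4 CPM. Both lay lower without overlap, also on the pan-macrophage scaling, with gaps of 4.44-fold and 4.01-fold between the MycCaP-BMP4 libraries. Isg20 encodes an exonuclease that degrades single-stranded RNA, and had 29.5 and 35.97 CPM in MycCaP against 131 and 45.1 CPM in MycCaP-BMP4. Its log2 fold change was 1.43 ± 0.52 (edgeR adjusted p = 0.233), the larger of the 2 positive values among the 38 genes. The 2 MycCaP-BMP4 libraries differed by more than the distance of replicate 2 from MycCaP: they stood at 401% and 138% of the MycCaP mean. Without MycCaP-BMP4 replicate 1 its log2 fold change was 0.46, and on the pan-macrophage scaling it was 3.45 and passed (edgeR adjusted p = 0.0411). Samhd1 encodes a hydrolase that depletes deoxynucleotides, and had 345 and 341 CPM against 395.5 and 408 CPM, a log2 fold change of 0.23 ± 0.31 (edgeR adjusted p = 0.703). Both MycCaP-BMP4 libraries lay slightly above MycCaP, at 115% and 119% of its mean, and close to each other.

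Bst2, Ifitm3 and Rtp4 were grouped as restriction factors of membranes. Bst2 encodes tetherin, which holds budding virions at the cell surface, and had 238 and 181 CPM in MycCaP and 68.9 and 90.9 CPM in MycCaP-BMP4. Its log2 fold change was -1.39 ± 0.31 (edgeR adjusted p = 0.144). Bst2 differed little between the MycCaP-BMP4 libraries, 1.32-fold, at 32.9% and 43.4% of the MycCaP mean. Rtp4, for a receptor transporter that also limits flaviviruses, had 45.3 and 42.35 CPM against 6.59 and 16.6 CPM. Ifitm3, which encodes a block to virus fusion in endosomes, had 454 and 504 CPM against 129 and 395 CPM, with a log2 fold change of -0.87 ± 0.56 (edgeR adjusted p = 0.440). Ifitm3 in MycCaP-BMP4 replicate 2 was 82.6% of the MycCaP mean, and without replicate 1 the log2 fold change was -0.28. The 3 lay lower without overlap; on the pan-macrophage scaling Rtp4 did, and Bst2 and Ifitm3 overlapped at log2 fold changes of 0.17 and 0.29. Per kilobase of exon these include the most abundant of the 38 genes in MycCaP, with a mean of 706 CPM per kilobase for Ifitm3, 232 for Bst2 and 162.5 for Isg15, while the lowest was 2.71 for Mx2. The 2 lowest after Mx2 were Ifit3b at 3.17 and Ifi44 at 3.44 CPM per kilobase.

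ADP-ribosylating proteins and ubiquitin ligases made the next group. Parp9 and Dtx3l encode partners in one ligase complex, lie head to head on chromosome 16 and overlap over 458 exon bases on opposite strands. Parp9 had 47.4 and 59.6 CPM in MycCaP and 17.5 and 36.4 CPM in MycCaP-BMP4. Dtx3l had 34.9 and 38.5 CPM against 11.4 and 22.1 CPM, a log2 fold change of -1.13 ± 0.38 (edgeR adjusted p = 0.214). The pair kept similar proportions, at 32.7% and 31.1% of the MycCaP mean in replicate 1 and 68.0% and 60.3% in replicate 2. Parp14, for a mono-ADP-ribosyltransferase, had 165.5 and 161.5 CPM against 33.9 and 113 CPM. Trim30a, whose protein restrains NF-kB signalling, had 148 and 138 CPM against 28.0 and 77.4 CPM. Trim25, the ligase that assists RIG-I, had 129 and 119 CPM against 58.5 and 165 CPM and a log2 fold change of -0.15 ± 0.50 (edgeR adjusted p = 0.884). For Trim25 the MycCaP-BMP4 libraries lay on either side of MycCaP, at 47.2% and 133% of its mean. The other 4 genes lay lower without overlap; with pan-macrophage scaling all 4 overlapped, and Parp9, Dtx3l and Trim25 had log2 fold changes of 0.34, 0.24 and 1.05.

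The remaining 5 genes include the one furthest from MycCaP. Ifi44 (ENSMUSG00000028037, chromosome 3, 151730922 to 151749960), an interferon-induced gene, had 21.0 and 21.1 CPM in MycCaP and 2.06 and 3.38 CPM in MycCaP-BMP4. It had the lowest log2 fold change and the smallest p of the 38, -2.95 ± 0.40 (edgeR adjusted p = 0.1005), and lay at 9.80% and 16.1% of the MycCaP mean. These rest on 57 and 77 counts against 481 and 499. Xaf1, for a proapoptotic factor that antagonises XIAP, had 28.0 and 29.3 CPM against 6.59 and 12.3 CPM. Phf11d, a PHD finger gene, had 28.0 and 38.55 CPM against 5.83 and 17.5 CPM. Sp100, for a nuclear body protein, had 137.5 and 141.6 CPM against 29.6 and 83.95 CPM. These 4 were lower without overlap, with replicate 1 the lowest library in each. Ifi35, which encodes a leucine-zipper protein that partners with NMI, had 33.3 and 34.2 CPM against 34.2 and 32.3 CPM and a log2 fold change of -0.02 ± 0.24 (edgeR adjusted p = 0.969). Ifi35 stood at 101% and 95.7% of the MycCaP mean, with the groups overlapping, and had the smallest fold change in size among the 38 genes. Scaled on the pan-macrophage genes, Ifi44 stayed lower without overlap, Xaf1, Phf11d and Sp100 overlapped, and Ifi35 lay higher, at 1.67 on the log2 scale.

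**Figure D3:**
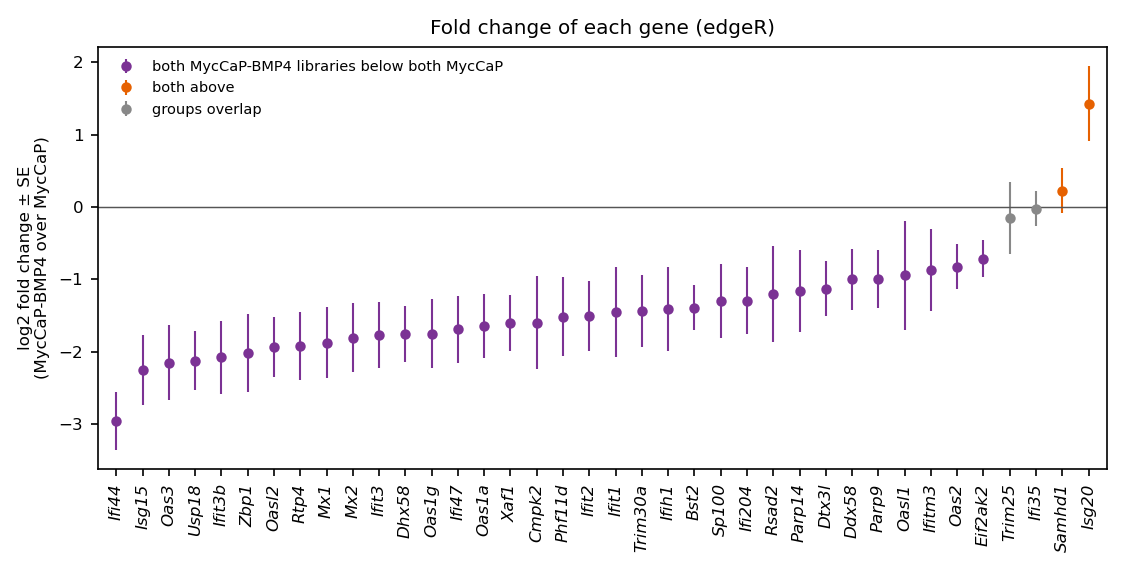
Log2 fold change of each of the 38 genes, MycCaP-BMP4 over MycCaP, from edgeR, with bars of 1 standard error and 2 libraries per group; purple marks genes lower without overlap, orange higher and grey overlapping. Values run from -2.95 for Ifi44 to 1.43 for Isg20, no gene passed the adjusted test, and 9 genes, Oas2 and Ifi35 among them, turn to positive values when libraries are scaled on the pan-macrophage genes.

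The 2 MycCaP-BMP4 libraries did not hold the 38 genes at one level. In 36 of 38 the value was lower in replicate 1 than in replicate 2, the exceptions being Isg20 and Ifi35. The ratio of replicate 2 to replicate 1 was above 3 in 9 genes, between 2 and 3 in 16 and between 1 and 2 in 11. The median log2 gap between the MycCaP-BMP4 libraries, replicate 2 minus replicate 1, was 1.19 over the 38 genes. Gaps taken without their sign had a median of 0.134 between the MycCaP libraries over the 38 genes. Between the MycCaP-BMP4 libraries, over all genes tested, that median was 0.50. MycCaP replicate 1 was the higher of its pair in 24 genes, and no gene differed by more than 0.555 on the log2 scale between them.

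Per library, the median log2 difference of the 38 genes from the MycCaP mean was -2.29 in the first MycCaP-BMP4 library (replicate 1) and -0.89 in replicate 2. For comparison, the 18 pan-macrophage genes had medians of -2.35 and -0.43 in the same libraries, with ranges from -2.86 to -1.14 and from -1.37 to 0.24. In replicate 1 the interferon-stimulated genes were therefore about as low as the macrophage markers, with 16 of 38 below the median marker, where 3.26% of all genes tested were. In replicate 2 they were lower than most of them, with 32 of 38 below the median marker, where 19.0% of all genes tested were. Below every one of the 18 markers were 8 genes in replicate 2 and 4 in replicate 1, against 2.35% and 0.732% of all genes tested. Oasl1 was below the median marker in replicate 1 alone, 17 genes in replicate 2 alone and 15 in both. Isg20, Samhd1, Ifitm3, Trim25 and Ifi35 were below it in neither. The part of the macrophage marker difference in these values was not tested.

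**Figure D4:**
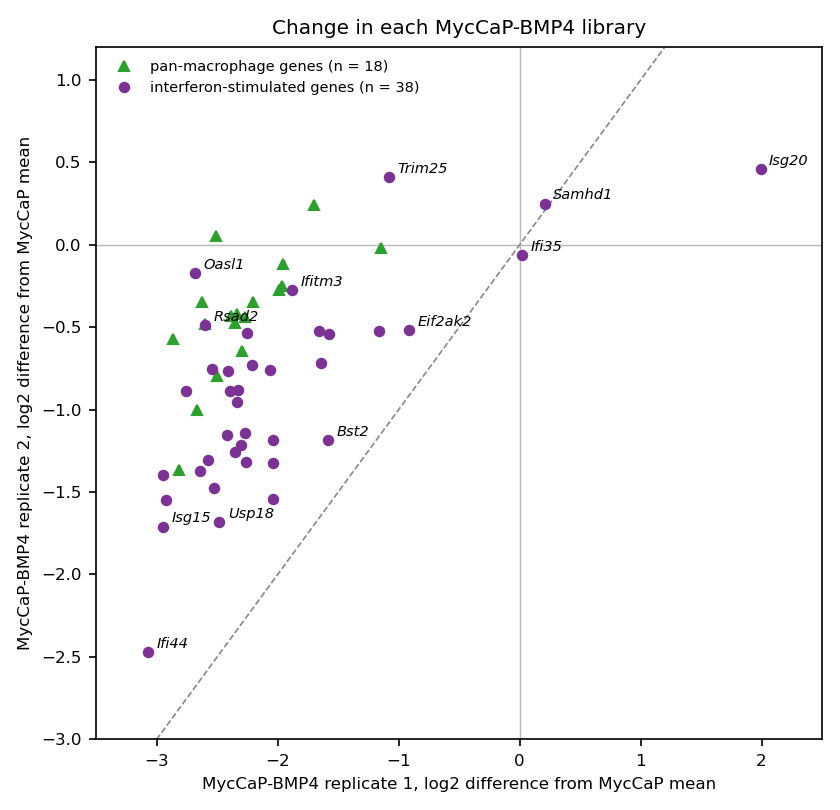
Log2 difference of each gene from the MycCaP mean in MycCaP-BMP4 replicate 1 (horizontal) and replicate 2 (vertical), on log2(CPM + 0.5), for the 38 interferon-stimulated genes (purple circles) and 18 pan-macrophage genes (green triangles); the dashed line marks equal values. The groups share the horizontal range, with medians of -2.29 and -2.35, while vertically the purple circles sit lower, with medians of -0.89 and -0.43.

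Leaving out either MycCaP-BMP4 library changed the calls. Without replicate 1 the median log2 fold change of the 38 genes was -0.92, the pan-macrophage median was -0.43, and 17 of the 38 passed edgeR's adjusted test, all lower, as did 1043 of 14657 genes (7.12%). Without replicate 2 the medians were -2.34 and -2.32, and 36 of the 38 passed, 35 lower and Isg20 higher, as did 5753 of 14855 genes (38.7%). With 1 library in a group these fits assume that it varies as the MycCaP libraries do. Ifi44, Isg15 and Usp18 had log2 fold changes of -2.64, -1.75 and -1.75 without replicate 1, and Trim25 turned to 0.41.

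The genes that make, receive and transmit the interferon signal gave a mixed picture. Of 50 such genes on 6 lists, 37 were tested. Both MycCaP-BMP4 libraries lay below both MycCaP libraries in 25, 12 overlapped and 0 lay higher. All genes tested gave 29.7% lower and 28.9% higher without overlap, shares that also stand beside the first-scaling counts of each list below. Of the 37, 0 passed edgeR's adjusted test, as over all genes (0% called). At an unadjusted p under 0.05, 7 were lower, where 6.76% of all genes tested were. The median log2 fold change of the 37 was -0.81, closer to 0 than that of the effector genes. Scaled on the pan-macrophage genes the count turned, with 6 of the 37 lower without overlap, 15 higher and 16 overlapping, against the 4.14% lower and 67.5% higher of all genes. The median of the 37 was then 0.39, so most of these genes were not as low as the macrophage markers. Over all genes tested the median was 1.62 on that scaling, so a positive value in the lists below is not by itself a rise above most genes. On that scaling 1 of the 37, a gene of the interferon gamma list, passed edgeR's adjusted test, where 7.68% of all genes did. Without MycCaP-BMP4 replicate 1 the median was -0.34, with 25 lower, 6 higher and 4 passing, where 39.5% of all genes lay lower, 38.7% higher and 7.12% passed.

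Among the ligands, Ifnb1, for interferon beta, had 76 and 58 counts in MycCaP and 8 and 41 counts in MycCaP-BMP4, a log2 fold change of -1.47 ± 0.92 (edgeR adjusted p = 0.423). The groups did not overlap, although MycCaP-BMP4 replicate 2 lay closer to MycCaP than to replicate 1. Of the 14 type I ligand genes found, it alone had enough counts to test. Another 10 had no count in any library, which allows up to 3 counts, or 0.1301 CPM at most, and Ifna4, Ifna5 and Ifnk had a single count in a single library. The interferon alpha genes are near-identical copies, so their separate counts are uncertain.

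In the receptor and ISGF3 list 6 of 7 genes lay lower and 1 overlapped, while on the pan-macrophage scaling 6 were positive. Stat2 had 77.4 and 63.0 CPM in MycCaP and 24.55 and 44.2 CPM in MycCaP-BMP4, and Irf9 had 49.4 and 55.3 CPM against 21.7 and 39.85 CPM. On the first scaling both of these ISGF3 genes were thus lower without overlap, with log2 fold changes of -1.03 and -0.77. Ifnar1, a receptor chain gene, overlapped, with 139 and 164 CPM against 71.8 and 154 CPM, while Ifnar2, for the other chain, had 172 and 137 CPM against 49.2 and 105 CPM. The kinase genes were nearer to MycCaP, with log2 fold changes of -0.48 ± 0.38 for Jak1 and -0.46 ± 0.24 for Tyk2 (edgeR adjusted p = 0.512 and 0.345).

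Of 8 interferon regulatory factor genes, 5 lay lower and 3 overlapped, while on the pan-macrophage scaling 6 were positive and Irf7 and Irf8 stayed negative. Irf7, itself induced by ISGF3, had 265 and 245 CPM in MycCaP and 35.0 and 74.8 CPM in MycCaP-BMP4, with a log2 fold change of -2.21 ± 0.43 (edgeR adjusted p = 0.134). Irf7 thus lay at a distance like that of Isg15. Irf3, whose protein is made without induction, had 42.35 and 35.1 CPM against 44.5 and 39.3 CPM and overlapped. Irf1, induced by either type of interferon, had 300.3 and 246 CPM against 73.9 and 147 CPM. Irf5 and Irf8, factors of the myeloid lineage, had log2 fold changes of -1.07 ± 0.59 and -1.34 ± 0.60 and were lower in both libraries. Irf2 and Irf4 overlapped, at log2 fold changes of -0.28 and -0.81.

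Upstream, 8 of 12 induction pathway genes lay lower and 4, Mavs, Ikbke, Traf3 and Ticam1, overlapped, while on the pan-macrophage scaling 10 of the 12 were positive. Tlr3, a sensor of double-stranded RNA, had 19.0 and 25.1 CPM in MycCaP and 10.7 and 14.45 CPM in MycCaP-BMP4, and Tmem173, which encodes STING, had 89.9 and 94.1 CPM against 22.9 and 62.5 CPM. Of 5 feedback inhibitors, Socs3 and Ptpn6 lay lower and 3 overlapped, and all 5 were positive on the pan-macrophage scaling. In the interferon gamma list Ifng had 41 and 45 counts against 0 and 1, a log2 fold change of -6.19 ± 1.10 (edgeR adjusted p = 0.124). Ifngr1 had 194 and 227 CPM against 73.4 and 138 CPM. Markers of T and NK cells, which make interferon gamma, numbered 13, of which 11 lay lower, on the pan-macrophage scaling too, with summed levels from 98.65 to 101 CPM in MycCaP and from 20.3 to 49.8 CPM in MycCaP-BMP4. Of 8 markers of plasmacytoid dendritic cells, producers of type I interferon, 6 lay lower and 1 higher (2 and 1 on the pan-macrophage scaling), with sums from 106 to 117 CPM and from 123 to 137 CPM. Most of that sum was Tcf4, which is not limited to these cells, at 88.85 and 97.9 CPM against 107 and 113 CPM, while Siglech, a defining marker, had 7.04 and 6.16 CPM against 1.38 and 1.98 CPM. No marker of these last 2 lists was at 0 in every library. Of 6 B and plasma cell markers tested 5 lay lower and 1 overlapped, with a list sum from 117 to 158 CPM in MycCaP and from 48.3 to 82.2 CPM in MycCaP-BMP4. Among conventional dendritic cell markers 6 of 8 lay lower and 1 higher, with sums from 48.4 to 62.05 CPM and from 16.4 to 39.1 CPM. Monocyte markers were 5 of 8 lower and 1, Fn1, higher, with sums from 2981 to 3611 CPM and from 5604 to 7265 CPM, of which Fn1 held 1414 and 1989 CPM against 5403 and 4417 CPM. The part of any of these markers, or of the tumour epithelial markers, in the values of the effector genes was not tested.

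**Figure D5:**
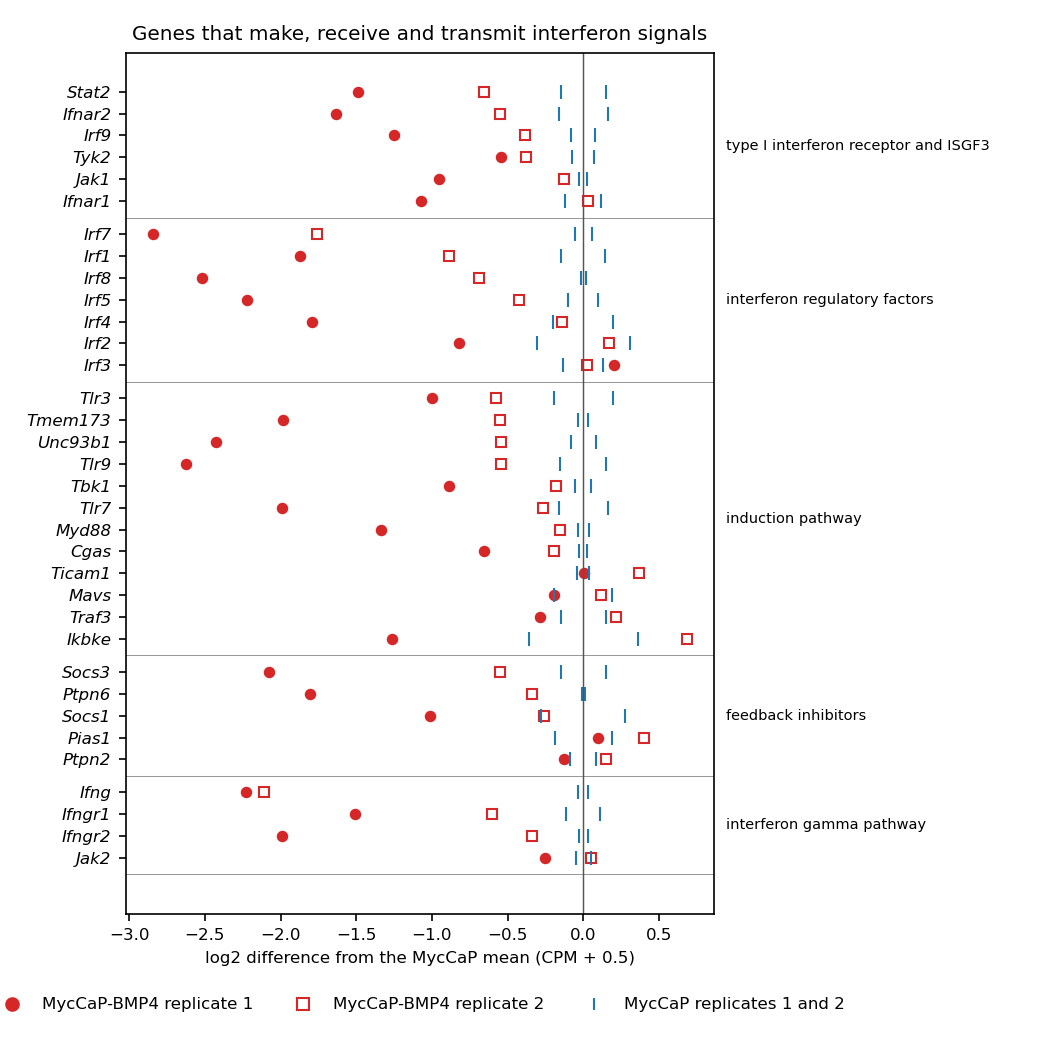
Log2 difference of tested pathway genes from the MycCaP mean, on log2(CPM + 0.5), in MycCaP-BMP4 replicates 1 (filled red circles) and 2 (open red squares), with the MycCaP libraries as blue ticks, for 5 lists. Stat2, Irf7 and Irf1 lie left of the ticks in both libraries (Stat2 and Irf1 turn positive when scaled on the pan-macrophage genes), Irf3 and Mavs lie among or beside them, and Ifng, with 0 and 1 counts, is held near -2 by the added 0.5.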

How the data were processed

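RNA of sorted macrophages from 2 MycCaP and 2 MycCaP-BMP4 tumour samples was selected for polyadenylated RNA and sequenced as directional paired-end libraries, per the labels' protocols. Each deposited table lists, for every gene, a raw count that the authors obtained with HTSeq, as the submitters' processing notes name it. Those notes also list STAR 2.6.0b, RSEM, Bowtie2 2.2.3 and the mouse build GRCm38, and the role of each tool is not given in the sources used here. Which annotation was counted, and with which strand setting, is likewise not given, so values of overlapping and near-identical genes are uncertain.

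HTSeq's own summary lines entered neither the library sizes nor the tests: reads outside genes were 3.37% to 6.03% of all reads, multiple alignments 8.00% to 10.6% and ambiguous reads 2.70% to 2.91%. Mitochondrial genes took 0.671% and 1.63% of gene counts in MycCaP and 3.28% and 2.85% in MycCaP-BMP4. Symbols were found for 37607 of 39179 identifiers, and coordinates and exon lengths are those of GENCODE M21 (GRCm38).

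Counts were filtered with edgeR's filterByExpr, scaled with TMM and compared with edgeR's quasi-likelihood F test (edgeR 4.0.16, R 4.3.3), two-sided and adjusted by Benjamini-Hochberg over the 14075 genes tested, with a threshold of 0.05 and a common biological coefficient of variation of 0.363. Standard errors were derived from the fold change and F. Per-library differences are on log2(CPM + 0.5), where CPM is TMM-scaled. DESeq2 1.42.0 and limma 3.58.1 (voom) were alternatives, with other scalings, filters, a replicate block and each library left out. The scripts were tested on simulated data. Every gene of the 38 is given with its value in each library, and full statistics are given for the gene with the smallest and the largest p of each of the 9 role groups. From the pathway lists, receptor, ISGF3 and IRF genes are named, except a few genes that are not reported here, and at most 2 genes with the smallest p of each other list. The members and lists were chosen with earlier results of these data known. Promoters come from a RefSeq table, in which 10 of the 38 genes were not found.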

Additional observations from a re-analysis of the deposited data

How the results depend on the processing

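The count of the 38 genes past edgeR's adjusted threshold, 0, depended on the processing. It was 18 with no low-count filter, 18 with DESeq2 and 1 (Isg20) with scaling on the pan-macrophage genes, and ranged from 0 to 36 when 1 library was left out: 17 without MycCaP-BMP4 replicate 1, 36 without MycCaP-BMP4 replicate 2 and 0 without either MycCaP library. Over all genes the count, also 0, was 65 with library size alone, 1081 with the pan-macrophage scaling, 1109 with no filter, 1385 with DESeq2 and 0 to 5753 with a library left out. The number lower at an unadjusted p under 0.05, 25, became 0 with the pan-macrophage scaling and 11 to 35 with a library left out, and the lowest was without MycCaP replicate 1. The 34 genes lower without overlap became 15 with the pan-macrophage scaling (19 overlapped and 4 were higher), and 34 to 35 with a library left out. Of all genes, 29.7% lay lower in the main fit, 39.5% without MycCaP-BMP4 replicate 1 and 4.14% with the pan-macrophage scaling. The median log2 fold change of -1.48 became -0.30 with that scaling and -2.34 to -0.92 with a library left out, and the per-library median of -2.29 in MycCaP-BMP4 replicate 1 became -0.0297, while that of -0.89 in replicate 2 became -0.49. The cause was not tested.

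Of 494 alternative values of single genes, 379 kept their direction and their side of the threshold, 103 newly passed it and 12 reversed. With the pan-macrophage scaling the log2 fold changes of Oas2, Ddx58, Eif2ak2, Bst2, Ifitm3, Parp9, Dtx3l, Trim25 and Ifi35 became 0.64, 0.30, 0.83, 0.17, 0.29, 0.34, 0.24, 1.05 and 1.67. Trim25, at -0.15, ranged from -1.06 to 0.41 with a library left out, the highest without MycCaP-BMP4 replicate 1, and Ifi35 became 0.15 with library size alone, which moved the median of all genes to 0.14, and ranged from -0.066 to 0.048 with a library left out, the highest without MycCaP-BMP4 replicate 2. With a gap of 1 base the promoter motif was found in 9 genes in place of 14.

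The labels do not say that replicate numbers pair libraries, and the deviations of same-numbered libraries from their group means correlated at -0.15 across 14075 genes. With the numbers as a replicate block, 2 genes passed, none of them among the 38, and the median log2 fold change of the 38 was -1.67. With the numbers crossed, an alternative chosen after seeing the data, 689 genes passed, 13 of them among the 38. The 38 genes had 32 to 11933 counts in a library. With 2 libraries per group, how much of the standard errors came from counting error or from the spread between libraries was not tested.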
